A study of Homo sapiens with 8 samples.

Results

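The comparison described here set MCF10A cells in which LATS1, LATS2 and p53 were targeted at once beside cells that received a control siRNA. MCF10A is a non-transformed human mammary epithelial line with basal features. The cells were transfected with siControl, with siRNA against LATS1/2 (siLATS), with siRNA against p53 (sip53), or with all of these targeting siRNAs (siLATS_p53), and 2 independent batches of cells were taken through all 4 transfections. The siLATS_p53 and siControl groups make up 4 of the 8 libraries of the study, with 1 library of each group per batch. Dose and time after transfection do not stand in the labels. All cells came from 1 line without further treatment, bulk polyadenylated RNA was read, and every group is a transient knockdown rather than a deletion. In bulk RNA, fewer cells of a kind and less RNA per cell cannot be told apart.

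The members were the 12315 of 29991 table entries that lay above the floor of the deposited values, 5 on the log2 scale, in at least 2 of the 8 libraries. Values are log levels as deposited, taken as base 2 because the linear sums of the libraries are then alike; the base is not given in the sources used here, and every fold rests on it. Levels are given on that scale, and a difference is siLATS_p53 minus siControl on that log2 scale, so that 1 is a 2-fold change. The value after ± is the standard error of a limma fit with batch as a block, n = 2 libraries per group. A gene is said to have risen or fallen where its Benjamini-Hochberg adjusted p over all 12315 entries was under 0.05. These p-values rest on the spread left after the group and batch terms, pooled over the 8 libraries. They come from 2 batches of 1 cell line.

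LATS1 and LATS2 are kinases at the end of the Hippo cascade. They phosphorylate the co-activators YAP and TAZ, which keeps them out of the nucleus, where they would otherwise drive genes together with TEAD factors. LATS2 is also known to bind MDM2, the ubiquitin ligase that limits p53, and p53 in turn raises genes for cell cycle arrest, apoptosis, repair and its own feedback. In mammary epithelium both pathways restrain proliferation, and SNAI2 (SLUG) and TP63 mark the basal state.

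The LATS1 and LATS2 messages were lower in the siLATS_p53 libraries of both batches. LATS1 read 9.54 and 9.64 in siControl batches 1 and 2, and 7.97 and 7.90 in siLATS_p53, a difference of -1.66 ± 0.11 (limma adjusted p = 6.4e-08). LATS2 read 9.92 and 10.22 against 8.75 and 8.81, a difference of -1.29 ± 0.11. The groups did not overlap for either gene, and reductions of 3.16-fold for LATS1 and 2.44-fold for LATS2 left measurable message of both. No difference was detected from siLATS: LATS1 differed from it by -0.08 ± 0.11 (limma adjusted p = 0.553) and LATS2 by 0.11 ± 0.11 (0.45).

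The libraries were alike in size after the authors' scaling, with linear sums of 23.7 to 24.9 M, and 11756 to 12064 entries lay above the floor. The spacing of low values put the depth at an estimated 11.3 to 37.1 M reads, and the batch 1 libraries of siControl and siLATS_p53 were the shallowest, at 12.1 and 11.3 M. All 9 epithelial markers of the line were measured; CDH1, EPCAM and CDH3 rose and TP63, ITGA6 and EGFR fell, while KRT5, KRT14 and KRT17 did not pass. The calls of CDH3 (0.26, limma adjusted p = 0.0101) and EGFR were lost without the batch term (0.105 and 0.289), and that of CDH3 also when siControl replicate 1 or either siLATS_p53 library was left out (0.133, 0.0886 and 0.0713). Of 7 fibroblast markers, PDGFRA, PDGFRB, COL1A2, COL3A1 and LUM were at the floor in every library; the summed linear level of the list was 1090 and 325 in siControl and 537 and 181 in siLATS_p53, mostly DCN. Of 8 blood and endothelial markers, PTPRC, CD3E, HBB, PECAM1, VWF and CDH5 were at the floor, and the list's sum was 832 and 907 against 914 and 866. The part of these transcripts in the differences below was not tested.

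In siLATS_p53 cells 4832 entries differed from siControl (39.2% of those tested): 3135 rose (25.5%) and 1697 fell (13.8%). Of these, 338 rose (2.74%) and 167 fell (1.36%) by at least 2-fold. Without the batch term 1117 rose (9.07%) and 675 fell (5.48%), so the smaller differences rest on the pairing of libraries by batch; 390 of the 505 changes of at least 2-fold were also called without it. The share of calls that were rises was 64.9%. When libraries were rescaled by medians of ratios, 2373 entries rose and 2312 fell. The share of rises was then 50.7%, so no overall direction is read from the counts. Both siLATS_p53 libraries lay above both siControl libraries for 34.7% of entries and below them for 19.3%. The median difference over all tested entries was 0.08.

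**Figure D1:**
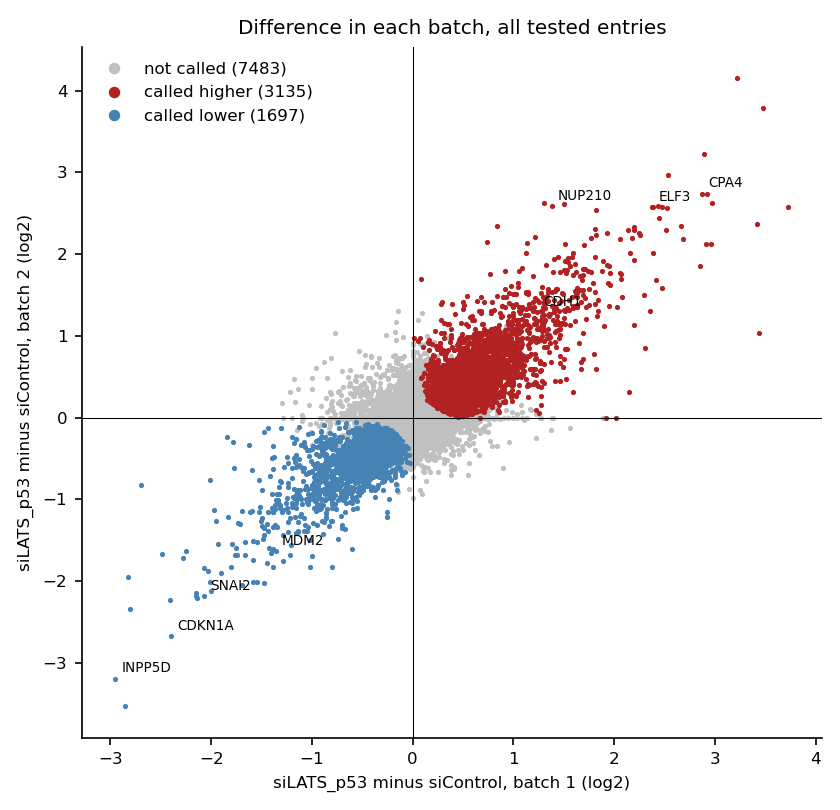
Difference between siLATS_p53 and siControl in batch 1 (horizontal axis, log2) and batch 2 (vertical axis, log2) for all 12315 tested entries, coloured by call. Most called entries lie in the lower left or upper right of the plot: 4829 of 4832 had the same sign in both batches, and across genes, which are not independent replicates, Pearson's r was 0.79 and Spearman's rho 0.71.

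The p53 target genes were lower as a group, with a few members going the other way. Among 14 targets known for growth arrest, 10 fell and 1 rose, with a median difference of -0.69. CDKN1A, the CDK inhibitor p21, read 12.29 and 12.83 in siControl and 9.89 and 10.16 in siLATS_p53, a 5.80-fold fall (-2.54 ± 0.09, limma adjusted p = 1.57e-10). GDF15, a secreted stress cytokine, read 9.72 and 9.30 against 6.86 and 5.78 (-3.19 ± 0.18). TP53INP1, a p53-induced nuclear protein, read 9.46 and 9.48 against 7.46 and 7.35 (-2.06 ± 0.13). All of these were clear of the control libraries in both batches. ZMAT3, SESN1 and BTG2 fell by 1.52, 1.14 and 0.89 on the log2 scale. PLK2 alone rose, from 10.57 and 10.79 to 11.44 and 11.44 (0.76 ± 0.08); it was picked out after its values were seen, and it read 1.52 above siControl in siLATS and 1.10 below it in sip53.

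Feedback genes on p53 followed, with 4 of 6 lower and none higher. MDM2 read 12.34 and 12.20 in siControl and 10.98 and 10.57 in siLATS_p53, a 2.82-fold fall (-1.49 ± 0.08). CCNG1 (cyclin G1) fell by 0.71 and TRIAP1 by 0.54, while PPM1D differed by -0.14 (limma adjusted p = 0.384). TNFRSF10C, a decoy receptor for the death ligand TRAIL, read 6.61 and 6.15 in siControl and sat at the floor in both siLATS_p53 libraries, a fall of at least 2.61-fold; it read 7.47 and 7.22 in siLATS.

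Apoptosis targets of p53 were lower in most cases. Of 14, 9 fell and 1 rose, but only 3 of the falls and no rise were called without the batch term, and the median difference was -0.29. EDA2R, a TNF receptor family member that binds ectodysplasin A2, read 9.06 and 9.09 against 6.92 and 6.89 (-2.17 ± 0.15), and SPATA18 (mitochondrial quality control) fell by 1.13. Both fell clear of the control libraries. BAX, the pore-forming death effector, differed by -0.39 ± 0.09, with an adjusted p of 0.00426 in limma with the block and 0.156 without it. BBC3 (PUMA) differed by 0.01 ± 0.24 and did not pass, whereas PMAIP1 (NOXA) rose by 0.32 ± 0.12, a call lost without the block (adjusted p = 0.312) and on rescaled values.

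Targets in repair and metabolism fell in 14 of 18 cases and rose in 2. RRM2B, the p53-inducible subunit of ribonucleotide reductase, read 11.53 and 11.48 in siControl and 9.99 and 9.47 in siLATS_p53 (-1.78 ± 0.10). DDB2, which recognises ultraviolet damage, fell by 1.21, C12orf5 (TIGAR) by 0.95, RPS27L by 0.93 and ABCA12, a lipid transporter, by 1.36. The 2 that rose, FUCA1 and TRAF4, did so by 0.66 and 0.49 and are named after their values were seen. TRIM22 read 10.29 and 10.09 against 9.55 and 8.60, and its fall of 1.11 was not called without the block (adjusted p = 0.191).

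Set against sip53, of the growth arrest list 2 were higher in siLATS_p53 and 1 lower, of the feedback list 0 and 1, of the apoptosis list 1 and 2, and of the repair list 3 and 2, where 12.7% of all entries were higher and 9.42% lower; these small counts are not read as a result about the targets. CDKN1A differed from sip53 by 0.08 ± 0.09 (limma adjusted p = 0.534) and GDF15 by 0.08 ± 0.18 (0.813). MDM2 differed from sip53 by -0.32 ± 0.08 (0.016), a call lost without the batch term.

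**Figure D2:**
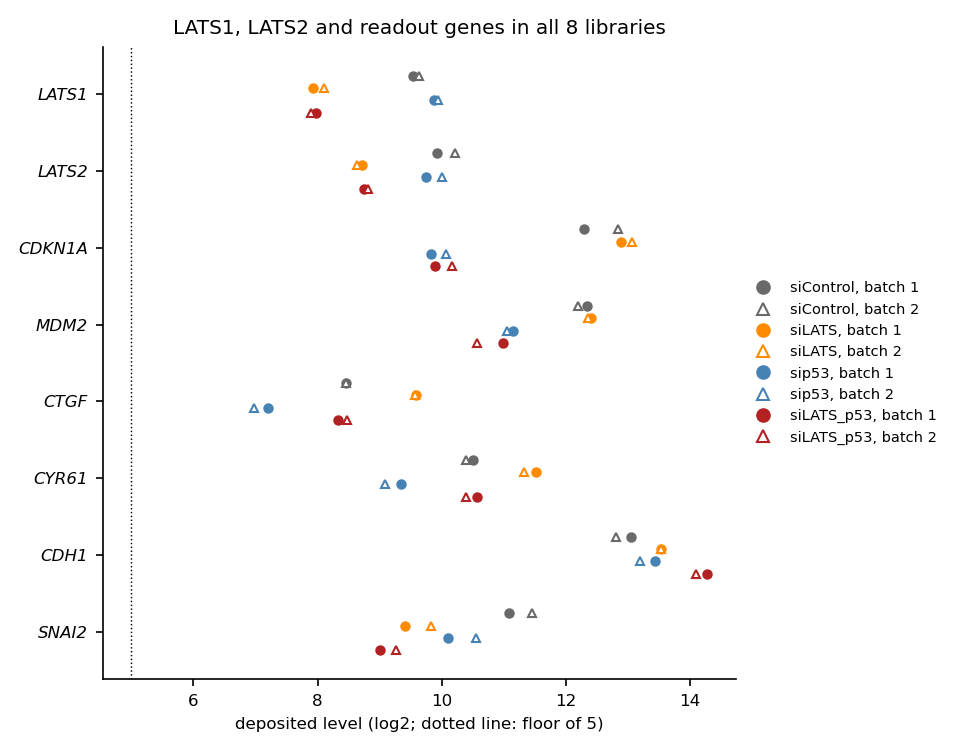
Deposited log2 level (horizontal axis) of LATS1, LATS2 and readout genes of both pathways in all 8 libraries, by group (colour) and batch (filled circles batch 1, open triangles batch 2). CDKN1A lies near 10 in both sip53 and siLATS_p53, whereas CTGF and CYR61 lie near the siControl level in siLATS_p53, above sip53 and below siLATS.

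The YAP/TAZ target list rose on balance, but its best known members did not. CTGF, a matricellular protein and standard YAP readout, read 8.46 and 8.45 in siControl and 8.33 and 8.47 in siLATS_p53 (-0.05 ± 0.12, limma adjusted p = 0.763). CYR61, its relative, read 10.51 and 10.39 against 10.56 and 10.39 (0.02 ± 0.08, 0.86). Both overlapped the control libraries, and the sign of neither held under every alternative tried. The levels nevertheless differed from each transfection on its own: CTGF in siLATS_p53 differed by -1.18 ± 0.12 from siLATS (9.59 and 9.57) and by 1.31 ± 0.12 from sip53 (7.20 and 6.98). CYR61 differed by -0.95 ± 0.08 from siLATS and by 1.26 ± 0.08 from sip53 (adjusted p = 1.64e-06 and 1.01e-07 in limma). ANKRD1 was at the floor in both groups, so no difference is given.

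Of the 27 tested members, 14 rose and 4 fell (12 and 2 without the batch term), with a median difference of 0.44, against 0.08 over all entries. IGFBP3, which binds insulin-like growth factors, read 6.09 and 5.78 in siControl and 8.48 and 8.36 in siLATS_p53, a 5.61-fold rise (2.49 ± 0.19). THBS1 (thrombospondin 1) read 13.80 and 13.66 against 14.81 and 15.17 (1.26 ± 0.11). F3 (tissue factor) rose by 1.17, CCDC80 by 1.10 and AMOTL2, itself a brake on YAP, by 1.05. Every one of these was clear of the control libraries. AREG, an EGF receptor ligand, and INHBA, an activin subunit, fell by 1.41 and 1.25; INHBA read 10.69 and 11.75 against 9.46 and 10.48, and its fall was not called without the block (adjusted p = 0.149).

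Compared with siLATS, 14 of the 27 were lower and 2 higher in siLATS_p53, and compared with sip53, 19 were higher and 2 lower. The background of these comparisons was 9.72% lower and 33.8% higher against siLATS, where the median of all entries was 0.15 and became 0.00 on rescaling, and 12.7% and 9.42% against sip53. THBS1 was lower than in siLATS (-0.58 ± 0.11) and higher than in sip53 (1.92 ± 0.11). CPA4, a secreted carboxypeptidase with the largest rise among called genes above the median level whose groups did not overlap, followed the same order: it read 10.60 and 11.11 in siControl, 14.03 and 14.07 in siLATS, 10.28 and 10.57 in sip53, and 13.48 and 13.85 in siLATS_p53, a 7.0-fold rise (2.81 ± 0.09).

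The THBS1 promoter is shown because THBS1 is the largest rise among the list's members that carry the TEAD core GGAATG in the bases just before the start site. The letters were searched on both strands (GGAATG and CATTCC). Promoters come from RefSeq on GRCh38.p14, whereas the deposited table was made on hg19 and holds no coordinates. Of the 27 members 19 had a promoter in that table, and 7 of these (36.8%) held the letters within the 250 bases before and 50 after the start, against 14.0% of all 27305 promoters; among the members that rose it was 3 of 11 (27.3%). The window printed is chr15:39580879-39581078, plus strand, 5′ to 3′, with the match in capitals.
THBS1: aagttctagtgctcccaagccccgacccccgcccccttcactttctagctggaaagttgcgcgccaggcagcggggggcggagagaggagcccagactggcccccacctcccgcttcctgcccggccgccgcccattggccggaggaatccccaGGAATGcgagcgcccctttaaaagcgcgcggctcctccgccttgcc

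Hippo pathway components themselves shifted by small amounts. Of 29 tested, 14 rose and 5 fell, and 7 and 4 did so without the batch term. WWC1 (KIBRA), an upstream activator of LATS, read 10.81 and 11.02 against 11.80 and 11.78 (0.87 ± 0.07), and STK3 (MST2), the kinase above LATS, rose by 0.66. YAP1 read 12.54 and 12.63 in siControl and 11.78 and 11.88 in siLATS_p53, a fall of 0.75 ± 0.07 (limma adjusted p = 1.73e-06). MOB1B, a LATS cofactor, fell by 0.79 and FRMD6 by 0.69. In the single transfections YAP1 differed from siControl by -0.43 in siLATS and -0.64 in sip53.

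Genes of S phase and mitosis were higher in siLATS_p53 than in siControl by modest amounts. Of 41 DNA replication genes 29 rose and RRM1 alone fell (named after its values were seen), and 13 and 0 did so without the batch term. RRM2, the S-phase subunit of ribonucleotide reductase, read 11.45 and 11.21 in siControl and 12.46 and 12.40 in siLATS_p53 (1.10 ± 0.08). CDT1 (origin licensing) read 8.77 and 9.03 against 9.71 and 9.83 (0.87 ± 0.10), and CDC6 rose by 0.60. RRM2 and the p53-inducible RRM2B thus went opposite ways.

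Among 25 E2F factors, cyclins and their kinases 13 rose and 5 fell, 8 and 2 without the batch term. E2F2 read 7.77 and 7.50 against 9.15 and 9.05 (1.46 ± 0.14), CCNE2 (cyclin E2) 8.29 and 8.34 against 9.48 and 9.65 (1.25 ± 0.11), and E2F8 and E2F1 rose by 1.10 and 0.98. CDK6 fell by 0.79 (adjusted p = 0.0524 without the block). Of the 6 measured CDK inhibitors CDKN1A fell, while 4 rose: CDKN1C (p57) by 1.30, CDKN2C (p18) by 1.07, CDKN3 by 0.80 and CDKN1B (p27) by 0.41, the last lost without the block (adjusted p = 0.194).

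Of 46 genes of the spindle, kinetochore and cytokinesis, 32 rose and none fell, 18 and 0 without the batch term and 27 and 1 on rescaled values, with a median difference of 0.32. None of the rises reached 2-fold. ANLN, the cytokinesis scaffold anillin, read 14.05 and 14.06 against 14.79 and 14.67 (0.68 ± 0.07), and KIF20A, UBE2C and SKA1 each rose by 0.53. HMMR, a spindle assembly factor, read 11.73 and 11.37 against 12.21 and 11.88 (0.50 ± 0.08, adjusted p = 0.000182 in limma with the block and 0.0785 without). Homologous recombination and Fanconi genes showed 12 rises and no fall among 23, with 6 and 0 without the block and 9 and 1 on rescaled values; BARD1, the partner of BRCA1, rose by 0.49.

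Most of the mitotic and replication genes differed from siLATS, and fewer passed against sip53. All 46 mitotic genes were higher in siLATS_p53 than in siLATS (33.8% of all entries were), 45 on rescaled values (16.3% of all) and 40 without the batch term (11.3% of all), with a median difference of 0.70. Against sip53, 9 were lower and none higher, with a median difference of -0.07. For DNA replication, 37 of 41 were higher than in siLATS (36 rescaled), and 2 were higher and 7 lower than in sip53. RRM2 and CCNE2, in contrast, were above sip53 too, by 0.39 ± 0.08 and 0.55 ± 0.11 (limma adjusted p = 0.00268 and 0.00193).

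The promoters of ANLN and HMMR are shown because they are the largest rises among mitotic members with the cell cycle genes homology region, TTTGAA, in the 200 bases before the start site, the letters known from promoters repressed by the DREAM complex when p21 is induced. Of the 46 members 40 had a RefSeq promoter, and 31 of these (77.5%) held TTTGAA or TTCAAA within 250 bases before to 50 after the start, against 15.4% of all 27305 promoters; of the members that rose it was 20 of 27 (74.1%). In both printed windows a pair of matches lies side by side, starting 26 and 20 bases before the start in ANLN (chr7:36389662-36389861, plus strand, GRCh38.p14) and 28 and 22 in HMMR (chr5:163460432-163460631, plus strand). Capitals mark the matches, 5′ to 3′.
ANLN: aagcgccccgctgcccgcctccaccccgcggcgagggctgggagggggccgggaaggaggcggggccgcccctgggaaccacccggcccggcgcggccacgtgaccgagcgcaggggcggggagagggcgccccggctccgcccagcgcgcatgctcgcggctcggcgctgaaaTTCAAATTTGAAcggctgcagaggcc
HMMR: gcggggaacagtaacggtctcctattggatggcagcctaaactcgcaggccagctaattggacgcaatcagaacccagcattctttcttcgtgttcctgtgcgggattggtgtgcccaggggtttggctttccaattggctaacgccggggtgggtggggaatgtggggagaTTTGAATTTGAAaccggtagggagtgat

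Epithelial junction lists held more rises than falls, as did all entries (25.5% and 13.8%). List medians were 0.53 for tight junction, 0.29 for adherens junction and 0.18 for desmosome genes, against 0.08 over all entries. No rise of the desmosome list as a whole is read from these values. CGN, the tight junction scaffold cingulin, read 8.49 and 8.52 in siControl and 10.93 and 11.11 in siLATS_p53, a 5.71-fold rise (2.51 ± 0.09, limma adjusted p = 2.09e-10). CLDN7 (claudin 7) read 11.20 and 10.94 against 12.72 and 12.71 (1.65 ± 0.08), CLDN1 rose by 1.12, and TJP3 came from the floor in both siControl libraries to 6.84 and 6.44. Of 16 tight junction genes 10 rose and MARVELD2 and F11R fell (both named after their values were seen), 8 and 1 without the batch term. These 2 differed by -0.32 and -0.49.

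CDH1 (E-cadherin) read 13.04 and 12.80 in siControl and 14.27 and 14.09 in siLATS_p53, a 2.40-fold rise (1.26 ± 0.07). It was higher in siLATS_p53 than in siLATS by 0.65 ± 0.07 and than in sip53 by 0.87 ± 0.07 (limma adjusted p = 1.6e-05 and 1.78e-06). Of 15 adherens junction and epithelial identity genes 10 rose and PVRL1 (nectin 1) fell, 6 and 0 without the batch term, with EPCAM up by 0.91, LSR (tricellular junctions) by 0.90 and JUP (plakoglobin) by 0.86. PPL (periplakin) read 10.71 and 10.38 against 12.22 and 11.68 (1.41 ± 0.08), and 5 of 10 desmosome genes rose and DSC3 fell, 2 and 1 without the batch term and 3 and 1 on rescaled values. Of 6 genes of the matriptase and prostasin list 4 rose and 1 fell, 4 and 0 without the batch term, and the lowest difference was -0.87. Matriptase, the membrane protease ST14, rose from 12.88 and 12.89 to 14.18 and 14.23 (1.32 ± 0.07). The other rises were its substrate PRSS8 (prostasin, 0.74) and its inhibitors SPINT1 (0.84) and SPINT2 (0.56).

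Of 12 epithelial transcription factors 10 rose and none fell, 6 and 0 without the batch term. ELF3, an epithelium-restricted ETS factor, read 9.36 and 8.81 in siControl and 11.73 and 11.39 in siLATS_p53, a 5.57-fold rise (2.48 ± 0.10). It read 9.71 and 9.34 in siLATS and 10.19 and 9.41 in sip53, so that siLATS_p53 stood above every other library, by 2.04 ± 0.10 over siLATS and 1.76 ± 0.10 over sip53 (limma adjusted p = 3.83e-08 and 6.08e-08). GRHL3 (grainyhead-like 3) rose by 1.44, SOX9 by 0.88 and OVOL2 by 0.83. Simple keratins and luminal surface genes had a median difference of 1.21, with 8 of 11 higher and none lower. KRT8 read 9.92 and 9.22 against 12.11 and 11.54 (2.26 ± 0.10); ERBB3 (HER3), PODXL (podocalyxin), CD24 and MUC1 rose by 1.91, 1.67, 1.39 and 1.21.

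The TP63 and hemidesmosome genes were mostly lower. Of 11 genes of the TP63 and hemidesmosome group 9 fell and none rose, with the same counts without the batch term and a median of -0.80. TP63, the basal cell master factor, read 10.86 and 11.12 in siControl and 9.89 and 10.25 in siLATS_p53 (-0.92 ± 0.08). S100A2 fell by 1.53, COL17A1 (collagen XVII of the hemidesmosome) by 0.99, and LAMB3, a chain of laminin 332, by 0.82. The basal keratins showed no such fall as a group: of 7, KRT15 rose and 2 fell, none was called without the batch term, and 0 and 3 were on rescaled values.

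SNAI2 (SLUG), a repressor of CDH1, read 11.08 and 11.45 in siControl and 9.01 and 9.27 in siLATS_p53, a 4.37-fold fall (-2.13 ± 0.08, limma adjusted p = 8.29e-10). It was below both single transfections, by -0.48 ± 0.08 from siLATS and -1.19 ± 0.08 from sip53. The mesenchymal list as a whole was divided, with 7 of 19 higher and 8 lower, 2 and 5 without the batch term. FN1 (fibronectin) fell by 1.16 and TGFBI by 0.83, while FBN1 (fibrillin 1) and CDH4 rose by 1.20 and 0.88. In the matrix list COL12A1 and COL4A2 rose by 1.74 and 1.48 and COL7A1 fell by 1.05, with 9 of 21 higher and 5 lower. Of 11 integrins 7 fell and ITGA1 rose, 3 and 0 without the batch term, and ITGA2, a collagen receptor subunit, fell by 1.26.

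Contractile and protease genes changed in both directions. Of 21 actomyosin genes 10 rose and ACTA2 fell, 6 and 1 without the batch term; TPM1 rose by 0.86, CNN3 by 0.83 and MYL9 by 0.71. Pericellular protease genes rose in 9 of 17 cases and fell in 6, 7 and 3 without the batch term. SERPINB2 (PAI-2) read 10.25 and 10.25 against 11.93 and 12.06 (1.75 ± 0.08), and PLAUR, the urokinase receptor, rose by 1.15. SERPINB2 is an inhibitor of plasminogen activation.

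**Figure D3:**
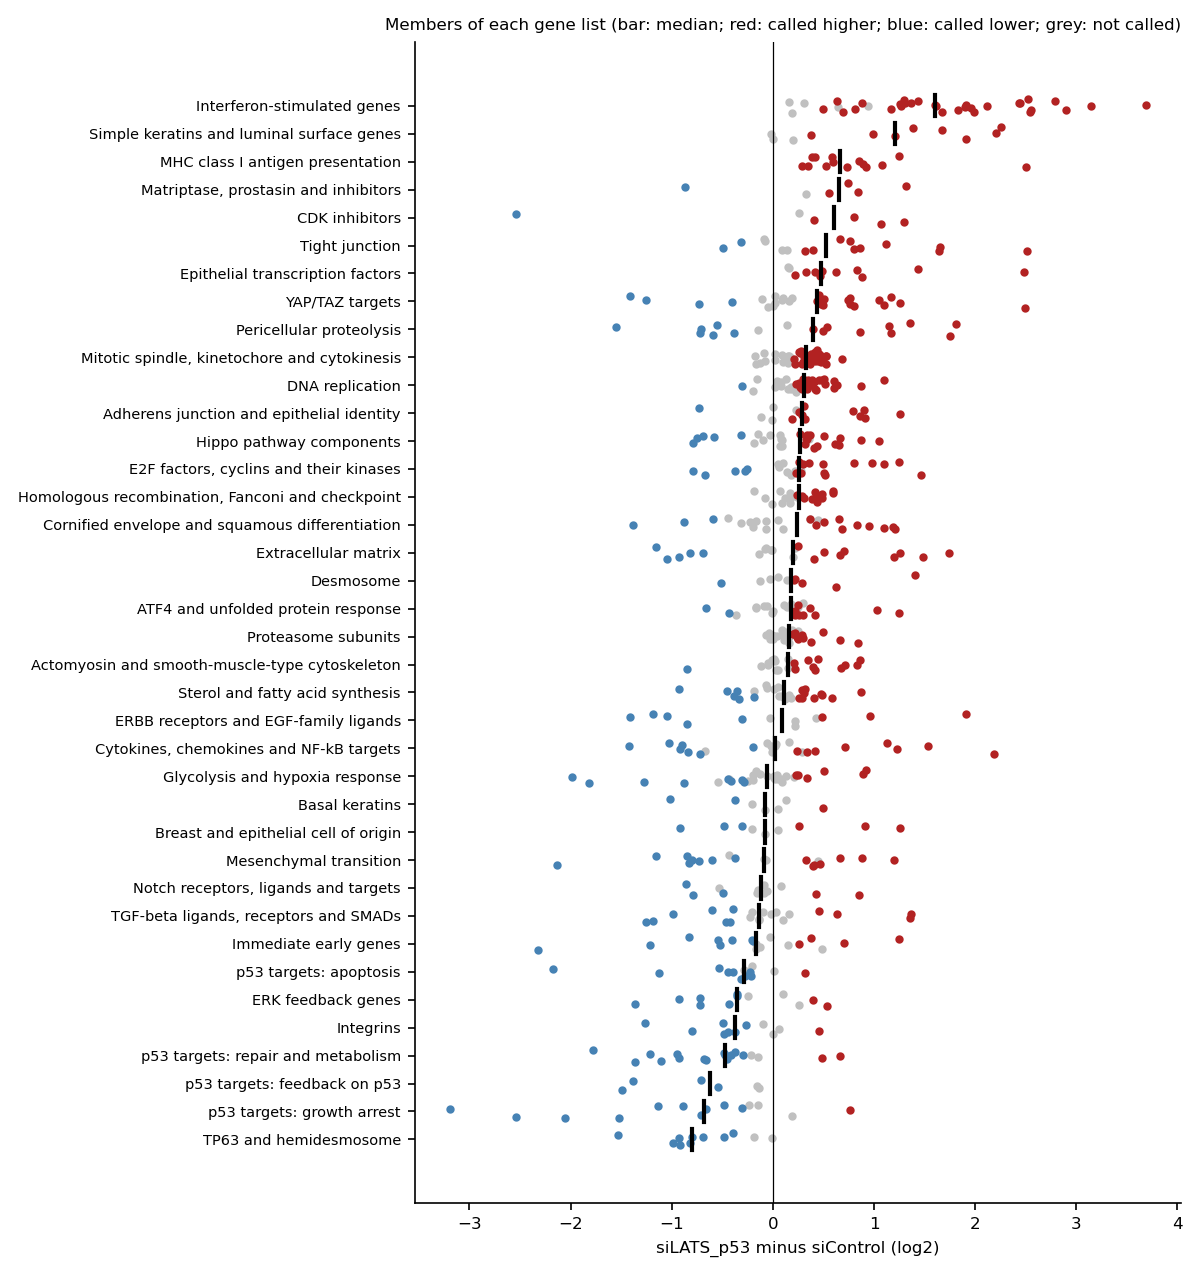
Difference between siLATS_p53 and siControl (horizontal axis, log2) of each tested member of the gene lists used here, ordered by the list's median (black bar); red, called higher, blue, called lower, grey, not called. Interferon-stimulated genes (median 1.60) and simple keratins (1.21) stand at the top, TP63 and hemidesmosome genes (-0.80) and p53 growth arrest targets (-0.69) at the bottom.

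EGF receptor family genes and immediate early genes changed in both directions. Of 12 receptors and ligands 3 rose and 5 fell, 2 and 3 without the batch term, with a median difference of 0.10. The ligands AREG, HBEGF and TGFA fell by 1.41, 1.19 and 1.05, and HBEGF read 10.93 and 10.92 against 9.59 and 9.89. EREG fell by 0.85 (adjusted p = 0.0578 without the block). Of the receptors ERBB3 rose and EGFR fell by 0.31 ± 0.06 (adjusted p = 0.289 without the block).

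EGR1, an immediate early transcription factor, read 10.81 and 10.74 in siControl and 8.40 and 8.51 in siLATS_p53, a 4.99-fold fall (-2.32 ± 0.10). FOS read 9.98 and 9.8 against 8.69 and 8.67 (-1.21 ± 0.11), and MYC fell by 0.54, whereas ATF3 and JUND rose by 1.25 and 0.70. Of the 18 immediate early genes 4 rose and 8 fell, 3 and 4 without the batch term. DUSP6, the phosphatase that ERK induces against itself, read 11.45 and 11.30 against 10.06 and 9.97 (-1.36 ± 0.08); PHLDA1 and SPRY4 fell by 0.93 and 0.72, and 7 of 12 ERK feedback genes fell and 2 rose, 4 and 1 without the batch term. EGR1 and DUSP6 were lower than in siLATS (-0.56 ± 0.10 and -0.47 ± 0.08) and than in sip53 (-1.13 ± 0.10 and -1.09 ± 0.08).

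In the TGF-beta list 4 of 20 rose and 7 fell, 2 and 2 without the batch term and 4 and 11 on rescaled values: TGFBR3 (betaglycan) rose by 1.37, and LTBP1, which stores latent TGF-beta, fell by 1.19. In the Notch list 2 of 12 rose and 3 fell (1 and 2 without the batch term, 2 and 5 on rescaled values), with NOTCH2 up by 0.43 and its ligand JAG1 down by 0.79. Hypoxia and glycolysis genes included some of the largest falls, ANGPTL4 from 12.97 and 12.94 to 10.69 and 11.23 (-1.99 ± 0.12) and CA12 (a carbonic anhydrase) from 13.45 and 13.54 to 11.64 and 11.71 (-1.82 ± 0.06). The list as a whole did not move 1 way, with 6 of 31 higher and 8 lower, 2 and 5 without the batch term and 3 and 9 on rescaled values.

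Interferon-stimulated genes held the largest median difference of any list, 1.60, with 30 of 35 higher, 25 of them by at least 2-fold, and none lower. IFI6, an antiviral membrane protein, read 7.09 and the floor of 5 in siControl batches 1 and 2, and 10.32 and 9.15 in siLATS_p53 (3.69 ± 0.65, limma adjusted p = 0.000521). IFIT1, which binds foreign RNA caps, lay at the floor in siControl in either batch and read 8.73 and 7.58 in siLATS_p53, at least 8.89-fold higher. OAS2 read 5.24 and the floor against 8.67 and 7.37, and ISG15, a ubiquitin-like modifier, rose from the floor to 7.91 and 7.13. Both siLATS_p53 libraries were above both siControl libraries for each of these 4 genes, and none of the 4 was called without the batch term.

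The spread between batches was wide for this list. Its median level was 6.83 and 5.92 in siControl batches 1 and 2, 9.57 and 6.20 in siLATS, 7.92 and 5.99 in sip53, and 9.13 and 7.63 in siLATS_p53. The batch 1 library was thus the higher of each group, and the siLATS library of batch 1 was above every other. In siControl batches 1 and 2, 9 and 15 of the 35 members sat at the floor. In batch 2, 12 did in siLATS, 14 in sip53 and 3 in siLATS_p53. Values at the floor can narrow the estimated spread, which limits the errors and calls of these members. Without the batch term 7 of the 35 were called higher, where 9.07% of all entries were. Counted against siLATS, 9 were higher in siLATS_p53, where 33.8% of all entries were. Without the batch term 1 was, against 11.3% of all entries. These counts are not read as a rise of the list over siLATS. IFIT1 differed from siLATS by 0.94 ± 0.64 (limma adjusted p = 0.247). Counted against sip53, 25 were higher (1 without the batch term, as 2.54% of all entries were), and IFIT1 differed by 2.13 ± 0.64 (0.0274). The call for IFIT1 against siControl was kept in 5 of the 8 fits with 1 library left out.

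**Figure D4:**
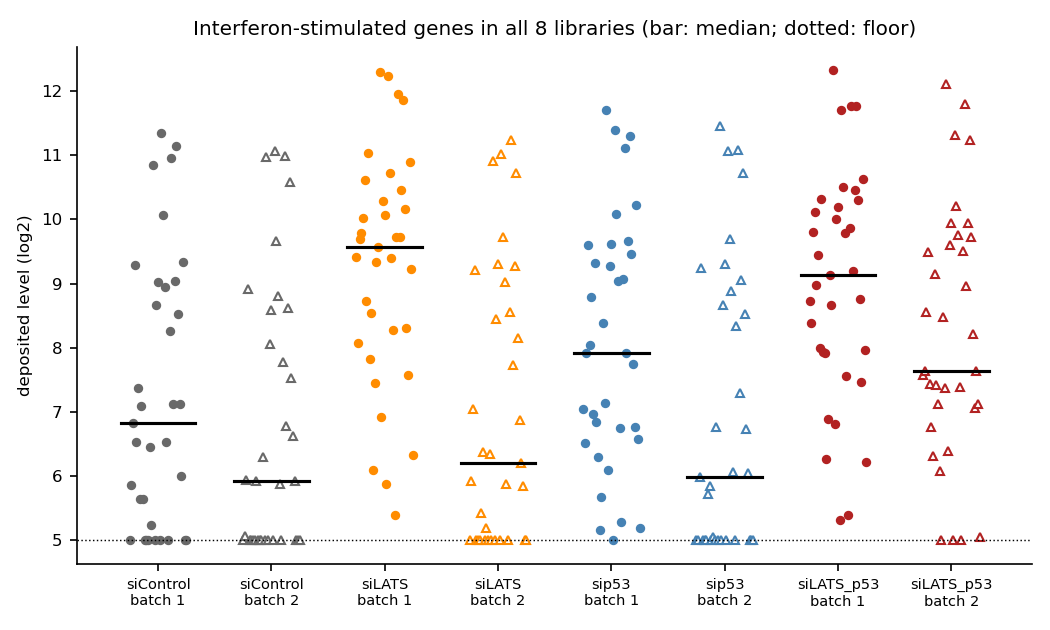
Deposited log2 level (vertical axis) of the 35 tested interferon-stimulated genes in each of the 8 libraries; each point is 1 gene, the bar is the list's median and the dotted line the floor. The medians of siLATS_p53 (9.13 and 7.63) are above those of siControl (6.83 and 5.92) in both batches, and batch 1 is the higher in every group.

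IFI6 and IFIT1 promoters are shown as the largest rises among named members with the core below in the 200 bases before the start. The choice of these windows thus required a match. The core of the interferon-stimulated response element was searched as GAAANNGAAA and, on the other strand, TTTCNNTTTC. Of the 35 members 28 had a RefSeq promoter, and 17 of these (60.7%) held the core within 250 bases before to 50 after the start, against 3.65% of all 27305 promoters; of the members that rose it was 15 of 25 (60.0%). The IFI6 window has 3 matches, the first starting 156 bases before the start (chr1:27672193-27672392, minus strand, GRCh38.p14), and the IFIT1 window has 2, starting 116 and 103 bases before it (chr10:89392423-89392622, plus strand). Matches are in capitals, 5′ to 3′; they describe the letters and show no binding.
IFI6: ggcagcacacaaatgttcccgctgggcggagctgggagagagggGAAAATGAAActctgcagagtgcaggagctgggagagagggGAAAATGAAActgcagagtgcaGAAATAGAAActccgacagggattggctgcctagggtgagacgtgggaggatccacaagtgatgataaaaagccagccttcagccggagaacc
IFIT1: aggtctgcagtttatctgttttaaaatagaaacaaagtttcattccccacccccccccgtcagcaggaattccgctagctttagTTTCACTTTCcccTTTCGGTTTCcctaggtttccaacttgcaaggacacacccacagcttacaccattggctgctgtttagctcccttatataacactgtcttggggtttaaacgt

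Genes of antigen presentation rose. All 14 measured members of the MHC class I list were higher, 5 of them without the batch term, with a median difference of 0.66. PSMB9, an immunoproteasome subunit, was at the floor in siControl in either batch and read 7.66 and 7.35 in siLATS_p53, at least 5.66-fold higher; PSMB8 read 9.17 and 8.88 against 10.48 and 10.08 (1.25 ± 0.09). PSMB9 also exceeded siLATS by 1.56 ± 0.27 and sip53 by 1.43 ± 0.27 (limma adjusted p = 0.00054 and 0.00188). Of the 14 members 7 were higher than in siLATS, 2 on rescaled values and 1 without the batch term. Of all entries 33.8%, 16.3% and 11.3% were, and no rise of the list over siLATS is read from these counts. Against sip53 12 were higher, and 0 without the batch term. The list's median level was 10.92 and 9.97 in siControl batches 1 and 2. Of the constitutive proteasome subunits 11 of 31 were higher and none lower (3 and 0 without the batch term, 6 and 0 on rescaled values), with a median difference of 0.16. Over all entries 25.5% were higher, 9.07% without the batch term, and 2373 of 12315 on rescaled values. No rise of these subunits is read from the counts.

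Inflammatory cytokines were divided, with 8 of 23 higher and 7 lower, 6 and 2 without the batch term. IL6 lay at the floor in every siControl and sip53 library, read 5.38 and the floor in siLATS, and read 7.18 and 7.20 in siLATS_p53, at least 4.57-fold above siControl. The mean of IL6 over both batches lay at least 2.00 above that of siLATS on the log2 scale. No p-value is given for IL6, since most of its values sat at the floor, which narrows the estimated spread. CXCL16 rose by 1.53 and ICAM1, an adhesion receptor for leukocytes, by 1.23, the latter not called without the block (adjusted p = 0.093). CSF3 (G-CSF) read 13.70 and 12.75 against 12.22 and 11.39 (-1.42 ± 0.14, adjusted p = 0.138 without the block), and IL11 fell to the floor.

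Lists of other processes gave mixed counts. Squamous differentiation genes rose in 10 of 24 cases and fell in 3 (3 and 0 without the batch term, 10 and 5 on rescaled values), with KLK10, a tissue kallikrein, up by 1.21. Sterol and fatty acid genes rose in 10 of 27 cases and fell in 6 (3 and 1 without the batch term), and INSIG1, which retains SREBP factors in the endoplasmic reticulum, fell by 0.93. Of 24 ATF4 and unfolded protein response genes 9 rose and 2 fell, 1 and 2 without the batch term; PHGDH, the first enzyme of serine synthesis, rose by 1.03 (adjusted p = 0.0709 without the block).

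Across all 25 entries that lay at the floor in siControl in either batch and at least 2-fold above it in both siLATS_p53 libraries, the highest were IFIT1, RGMA, RSAD2, ISG15, PSMB9 and APOL1. RGMA, a repulsive guidance molecule, read 7.92 and 7.74, at least 7.10-fold above the floor, and 6.63 and 6.23 in sip53. The reverse was seen for 4 entries: INSC, TNFRSF10C, C6orf138 and CCDC68. No siControl value exceeded the floor for 299 tested entries, and no siLATS_p53 value did for 162. These pools differ in size, so no direction is read from the counts of 25 and 4. INSC, a spindle orientation adaptor, read 6.58 and 7.01 in siControl and was at the floor in siLATS_p53, at least 3.47-fold lower; it was also at the floor in both sip53 libraries and read the floor and 5.21 in siLATS.

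The largest falls included genes outside the lists. INPP5D (SHIP1), an inositol lipid phosphatase best known from blood cells, read 11.13 and 11.54 in siControl and 8.18 and 8.35 in siLATS_p53, an 8.41-fold fall (-3.07 ± 0.09, limma adjusted p = 8.99e-11). It read 10.94 and 11.31 in siLATS and 8.65 and 8.87 in sip53. PLCH2, a phospholipase C, and LPGAT1, a phospholipid acyltransferase, fell by 2.08 and 2.01, and LPGAT1 read 11.69 and 11.63 in sip53 against 12.70 and 12.59 in siLATS. CD164, a sialomucin, fell by 1.59; it read 13.58 and 13.09 in siControl, 13.54 and 13.13 in siLATS, and 12.22 and 11.96 in sip53.

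Others of the 15 largest falls were already low in siLATS. IARS2, the mitochondrial isoleucyl-tRNA synthetase, read 14.33 and 14.07 in siControl, 12.57 and 12.51 in siLATS, 14.25 and 14.00 in sip53, and 12.67 and 12.39 in siLATS_p53, with no detectable difference between the last group and siLATS (-0.01 ± 0.07, limma adjusted p = 0.925). B3GALNT2, a glycosyltransferase for dystroglycan, EMB (embigin), a transporter chaperone, and FLRT3, an adhesion receptor, fell by 1.54, 1.71 and 1.87, and lay -0.24, -0.46 and -0.30 from their siLATS levels. COPS8, a subunit of the COP9 signalosome, read 11.55 and 11.21 in siControl, 10.15 and 10.12 in siLATS, 10.33 and 10.26 in sip53, and 9.64 and 9.31 in siLATS_p53 (-1.90 ± 0.09). It was below both single transfections, by -0.66 ± 0.09 and -0.82 ± 0.09.

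Among the 15 largest rises outside the lists, CA2 (a carbonic anhydrase) read 9.60 and 9.70 in siControl, 9.77 and 10.07 in siLATS, 11.17 and 10.94 in sip53, and 11.56 and 11.55 in siLATS_p53 (1.90 ± 0.10). NCEH1, a cholesterol ester hydrolase, rose by 1.72 and differed from siLATS by 0.17 ± 0.09 (limma adjusted p = 0.141). SCARA3, TM4SF1 and CYBRD1, a scavenger receptor family member, a tetraspanin-like protein and a ferric reductase, rose by 1.60, 1.62 and 1.58, and each was higher than in either single transfection. NUP210, a nuclear pore protein, read 10.18 and 7.66 in siControl and 11.56 and 10.25 in siLATS_p53; its rise of 1.98 ± 0.19 rests on the batch term (adjusted p = 0.24 without it).

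**Figure D5:**
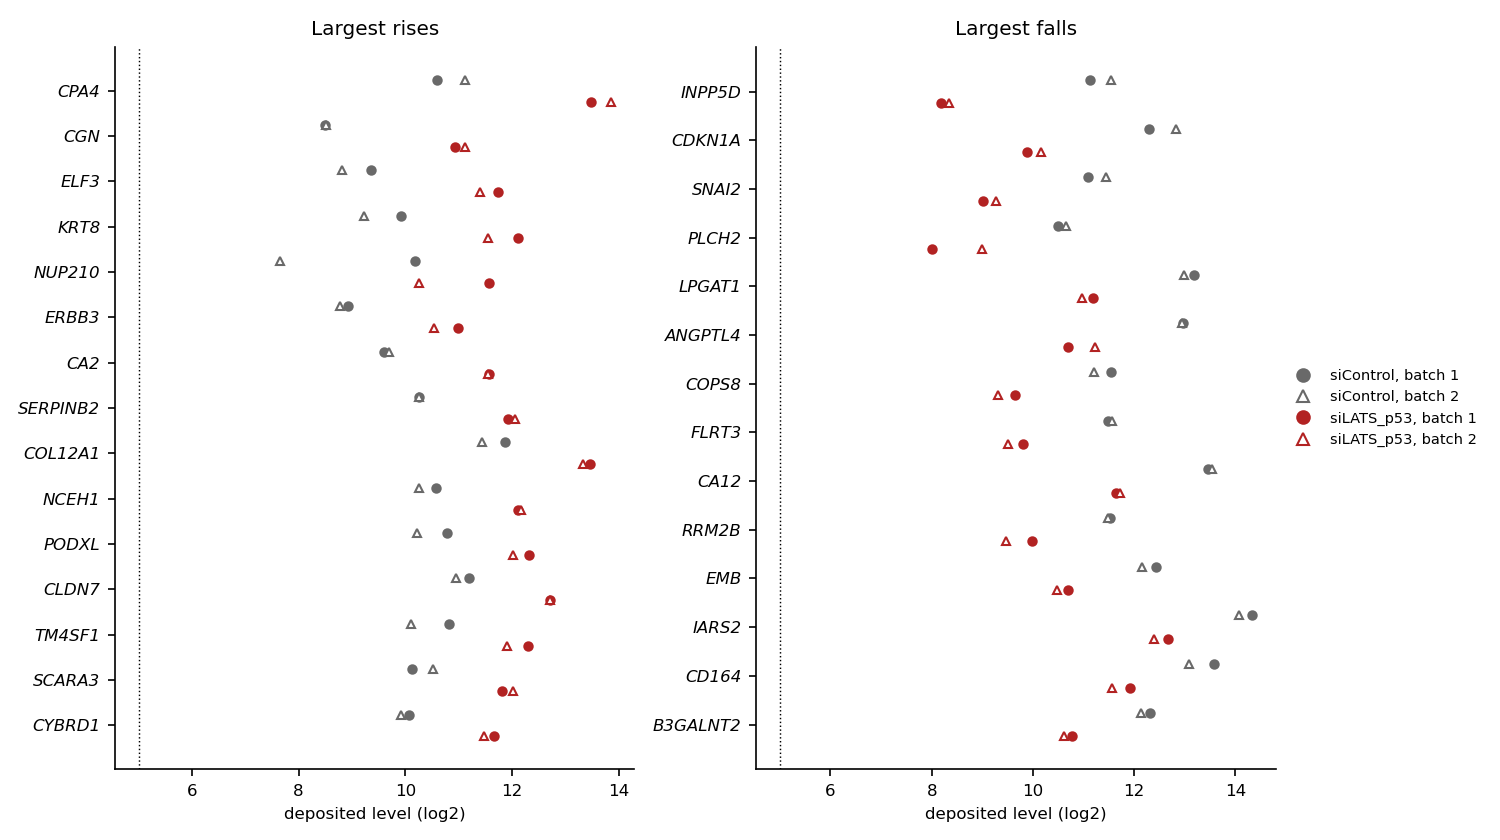
Deposited log2 level (horizontal axis) of the 15 genes with the largest rise (left) and 14 of the 15 with the largest fall (right) between siControl (grey) and siLATS_p53 (red), batch 1 as filled circles and batch 2 as open triangles; the dotted line is the floor. The groups do not overlap for any of them, which the choice of these genes required, and NUP210 has the widest gap between batches, 10.18 and 7.66 in siControl.

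Over the whole table, siLATS_p53 differed from siLATS in 5361 entries (43.5%) and from sip53 in 2720 (22.1%), and without the batch term in 1791 (14.5%) and 451 (3.66%). Against siLATS 77.7% of the calls were higher, which became 47.8% on rescaling, and against sip53 57.4%, which became 53.7%. The comparisons share the siLATS_p53 libraries, so their counts are given side by side and were not compared.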

How the data were processed

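Polyadenylated RNA of 8 MCF10A libraries (4 siRNA groups, 2 batches of cells each) was sequenced. The authors' deposited values are log levels per gene symbol with a floor of 5, taken as log2 because linear library sums are then alike (23.7 to 24.9 M); the base is not given in the sources used here; per the submitters' processing notes TopHat and hg19 were used, and how reads were counted and scaled is not given in the sources used here. Each library's own deposited column equalled the series table (8 of 8). Raw counts could not be recovered, so log2 values were tested with limma 3.58.1 (R 4.3.3, mean-variance trend) over all 8 libraries, with group and batch as terms (3 residual and 10.9 prior degrees of freedom) and Benjamini-Hochberg adjustment over the 12315 entries that exceeded the floor in 2 or more libraries. The code was tested on simulated data. The labels name the replicate number as the batch, and the deviations of same-numbered libraries from their group means correlated at 0.565 to 0.726 over the 6 pairs of groups. Entries with repeated symbols (147 tested) were left out of lists and names. Some genes, 1 of the targeted genes among them, are counted in the lists but not reported here by name. Difference values of entries at the floor are lower bounds. Levels were not compared between genes, since lengths were not used.

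The members and gene lists were chosen with earlier results of these data known. Named genes were the targets and readouts, the 15 largest rises and falls among called genes above the median level (9.51) whose groups did not overlap, up to 6 called members per list, up to 6 genes each way at the floor in 1 group, and members that did not pass. Alternatives were: no replicate block, rescaling, other filters and pseudocounts, no trend, only the 4 libraries compared, and each library left out.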

Additional observations from a re-analysis of the deposited data

How the results depend on the processing

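Without the replicate block, 1117 entries were higher and 675 lower than in siControl (3135 and 1697 with it), 1791 differed from siLATS (5361) and 451 from sip53 (2720). With only the 4 siControl and siLATS_p53 libraries, 1806 were higher and 1015 lower. With no filter, entries at the floor in every library entered the fit, and 304 were higher, 206 lower, 94 and 64 at least 2-fold higher and lower, 303 differed from siLATS and 23 from sip53. Rescaled and without the block, 831 were higher, 921 lower, 216 at least 2-fold higher, 1200 differed from siLATS and 449 from sip53. Without the 2 libraries of batch 1 (chosen after seeing the data), 1481 were higher, 1112 lower, 3122 differed from siLATS and 1654 from sip53.

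Leaving out 1 library at a time gave 1794 to 2743 higher, 1107 to 1443 lower, 2301 to 5498 different from siLATS and 875 to 2767 different from sip53. Of the 233 named genes followed, 172 kept their side of the threshold without the block and 61 lost it. On rescaling 227 kept it, and all kept it under both pseudocounts. Apart from CTGF and CYR61, list members that did not pass, BBC3 among them, were not followed. Among these 233 only CTGF and CYR61 changed sign. CTGF ran from -0.16 to 0.06 with 1 library left out. It was 0.06 without siLATS_p53 replicate 1 and 0.02 without the batch 1 libraries of siControl and siLATS_p53. CYR61 was -0.05 on rescaling, with or without the block, and -0.02 without siControl replicate 1. The cause was not tested. The floor of the deposited values stood at 14.6 to 50 estimated reads, and changes below it could not be seen in these values.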
